A study of Stipitochalara longipes with 7 samples.

Results

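Among the gene models of the needle-litter fungus Stipitochalara longipes, 131 of 19765 (0.663%) met set bounds for a peak after 2 months of growth on pine needles. Members were chosen from the measured values. Total gene reads of each library were divided by a size factor, the median over 8859 gene models with reads in all 7 libraries of the reads over their geometric mean, and the result is called scaled reads here. A member had at least 100 scaled reads in both 2-month libraries, and the lower of these was at least 2 times the highest of the 5 later libraries. The fall after 2 months is therefore how the members were found and is described without a test.

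The fungus, which the labels also call Chalara longipesis, was grown alone on gamma-sterilised Scots pine needle litter (11 g of dry needles on 85 g of sand). The microcosms had been given ammonium chloride and were kept at 20 °C, and the fungus came in on needles it had colonised for 2 months beforehand. Total RNA was sequenced from the harvests at 2 months (2 libraries), 5 months (2 libraries) and 10 months (3 libraries). They are biological replicates by their labels, each from a microcosm of its own as far as the labels go, and 4 microcosms were taken down at each time. No strain or treatment other than time differed between the groups. No uncolonised or earlier sample was analysed here, so 2 months is the first point of the course and not a measured onset.

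Ascomycete fungi of this kind live in dead conifer needles. A fungus that enters fresh litter first meets soluble sugars and other easily used compounds, and later depends on secreted enzymes that open cellulose, hemicellulose and lignin-rich walls. Hyphal extension and the uptake of added ammonium also belong to the early phase. Whether the 131 members serve any of these processes is not known here. The files do not pair the JGI (Joint Genome Institute) protein identifiers with names, products or positions. Members are therefore described by length, level and course, and identifiers are printed for a few examples only.

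The libraries held 20009777 to 52554481 total gene reads, but 8 very abundant gene models, none of them a member, took a large and uneven part of these. Outside them, 2-month replicate 2 had the fewest reads (2938002) and detected the fewest gene models (10139). The other 6 libraries had 6880842 to 16923473 such reads and detected 13405 to 17076 gene models. A scaled value of 100 stood for 29.4 reads in 2-month replicate 2 and 165 reads in 2-month replicate 1. The RNA came from ground needle material as a whole, so fewer hyphae that use a gene and less of its RNA in each hypha cannot be told apart.

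By the rule every member was lower in all later libraries, and the medians describe the size of the drop. In the 2-month libraries the median of the members was 609 (replicate 1) and 670 (replicate 2) scaled reads. The 5-month medians were 101 (replicate 1) and 110 (replicate 2), and those of 10 months were 108 (replicate 1), 94.9 (replicate 2) and 59.9 (replicate 3). Every 2-month median was thus several times every later one, while later medians lay close together except for the lower 10-month replicate 3.

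**Figure D1:**
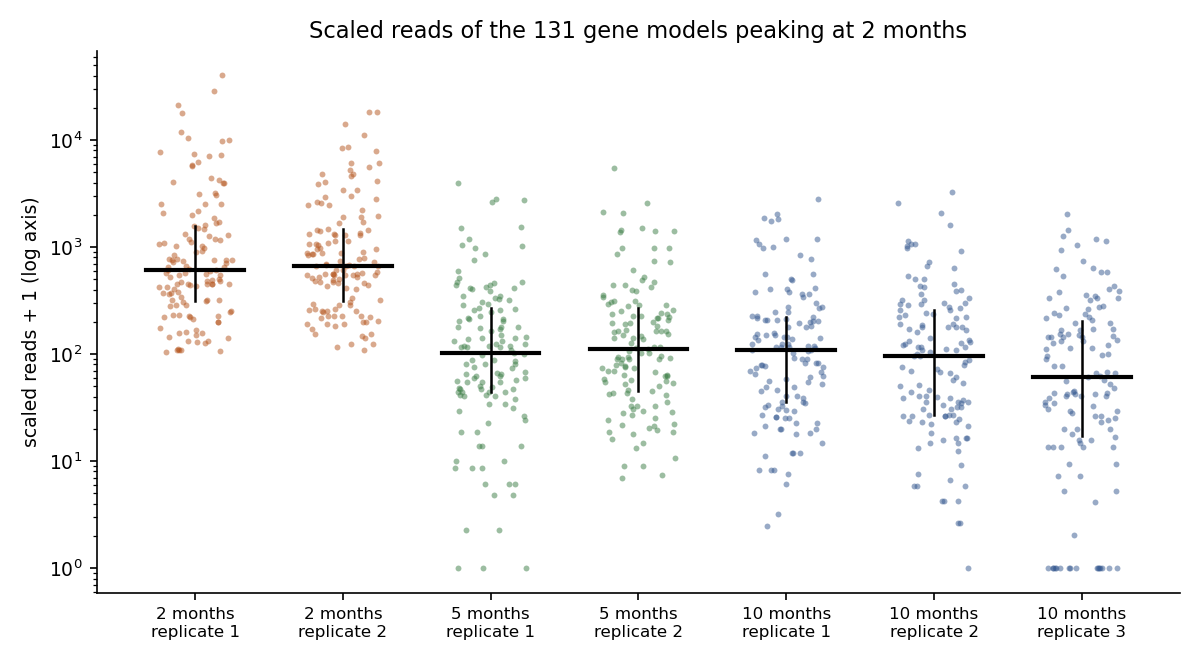
Scaled reads plus 1 (log axis) of the 131 members in each library, with 1 point per gene model, a thick line at the median and a thin line over the middle 50%. Medians were 609 and 670 at 2 months and 59.9 to 110 in the 5 later libraries; the points at the bottom are members with 0 reads, 16 of them in 10-month replicate 3.

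Of the reads outside the 8 abundant gene models, the members made up 2.92% and 2.32% in the 2-month libraries, with a mean of 2.62% ± 0.425 (SD, n = 2). The 5-month libraries gave them 0.426% and 0.543%, a mean of 0.484% ± 0.083 (SD, n = 2). The 10-month libraries gave them 0.304%, 0.274% and 0.203%, a mean of 0.260% ± 0.052 (SD, n = 3). The 10-month shares all lay below the 5-month shares, without a test, since the members were chosen on these libraries. A ranking by scaled reads per kb within each library depends on no scaling between libraries. The members were chosen on these same libraries, so their fall in rank largely follows from the rule and is a description only. The median member stood at percentile 84.3 and 87.8 of the 18407 gene models with reads in the 2-month libraries. In the 5 later libraries it stood at percentile 54.8 to 59.9, a little above the middle of the transcriptome.

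**Figure D2:**
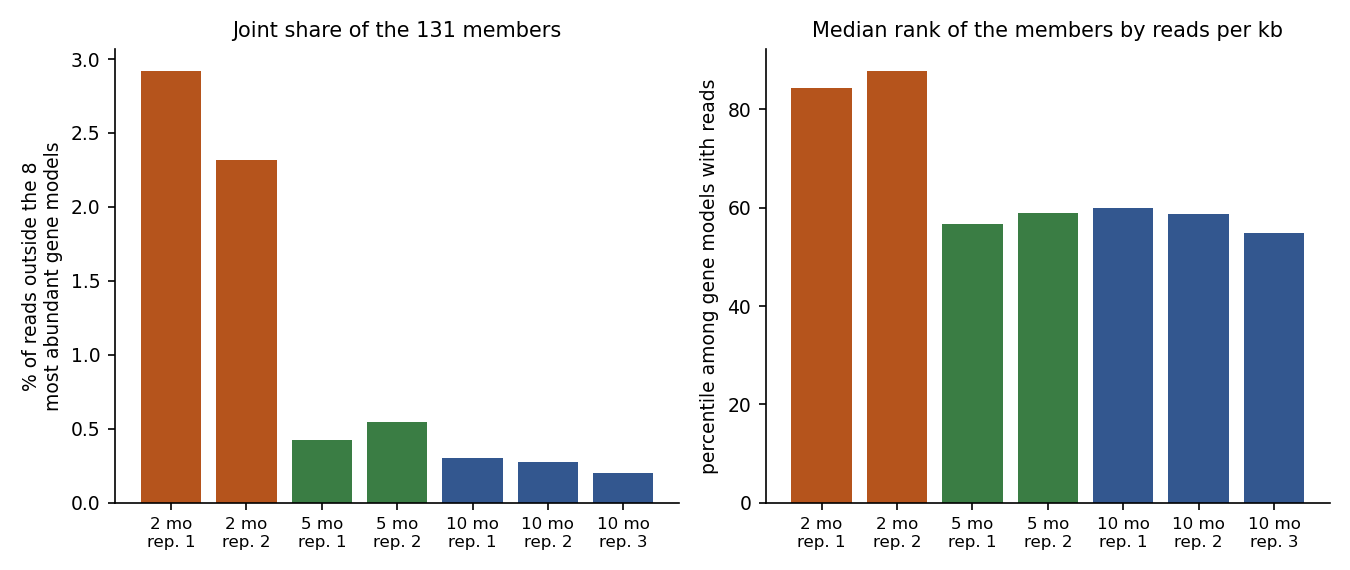
Left, joint share of the 131 members in the reads outside the 8 most abundant gene models (%), by library; right, the median percentile of the members among the 18407 gene models with reads, ranked by reads per kb. The 2-month libraries stand at 2.92% and 2.32% and at percentiles 84.3 and 87.8, and the later ones at 0.203% to 0.543% and 54.8 to 59.9.

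Few members were silent later. Of the 131, 112 had at least 1 read in every library, and none was at 0 in all 3 10-month libraries. Members without a read numbered 3 in 5-month replicate 1, 1 in 10-month replicate 2 and 16 in 10-month replicate 3, and the other later libraries had 0 such members. Up to 3 reads may underlie an observed 0, and in 10-month replicate 3 these would be 3.15 scaled reads. This library was also the lowest of the 5 later ones for 64 members (48.9%), against 31.8% of all gene models tested. Its part in the 10-month values of the members was not tested beyond the fits without it given below.

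Most members cleared the 2-fold bound by a modest margin. The ratio of the lowest 2-month value to the highest later value had a median of 3.14 and reached 21.9. It was 2 to 3 for 60 members, 3 to 5 for 37, 5 to 10 for 27 and at least 10 for 7. The 5 members just inside the bound had ratios of 2.001 to 2.009, and the 5 gene models just outside had 1.982 to 1.9995. In all, 39 gene models outside, these 5 included, had ratios from 1.8 up to the bound. At the level bound, the lowest members had 104, 106 and 107 scaled reads, and the nearest gene models outside had 95.9, 89.8 and 87.4. The bounds thus cut a continuous distribution, and the members are its upper end.

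Harvest means gave wider gaps than this strict ratio. The 2-month mean was 6.27 times the 5-month mean for the median member (range 2.30 to 73.9) and 8.28 times the 10-month mean (range 2.46 to 182). The mean fell at least 10-fold by both later harvests for 32 members. It had done so at 5 months but not at 10 months for 11 members, and at 10 months but not at 5 months for 22.

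Reads were concentrated on few members. The 10 members with the most reads held 55.1% of all member reads in 2-month replicate 1 and 45.1% in replicate 2, and 7 members were in both of these top groups. The member with the most reads in both libraries was 1722 bp long and had 40172 and 18238 scaled reads at 2 months. The 5-month libraries had 4001 and 5433, and those of 10 months had 2040, 3253 and 1272. Its 2-month libraries lay far above all later ones, and its 10-month libraries lay below both 5-month ones. Per length, the highest member was also the shortest, a model of 222 bp picked out after its values were seen. It averaged 84023 scaled reads per kb at 2 months, with 130246 in replicate 1 and 37800 in replicate 2. The 5-month mean was 2796 (1203 and 4389) and the 10-month mean was 2937 (4466, 2849 and 1497). The member median was 552 scaled reads per kb at 2 months. A total of 45 members ranked in the top 10% by reads per kb in both 2-month libraries, and 4 did so in all 7 libraries. At the other end, 29 members were below percentile 50 in every later library.

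The largest ratios belonged to gene models 370352 (861 bp) and 438968 (1368 bp). Gene model 370352 had 894 and 680 scaled reads in the 2-month libraries, 17.9 and 21.4 in those of 5 months, and 24.0, 31.1 and 4.21 in those of 10 months. Both 5-month libraries were already at the low level, and no 10-month library exceeded 31.1. Gene model 438968 had 1298 and 659 scaled reads in the 2-month libraries, 7.67 and 26.2 in those of 5 months, and 34.9, 4.91 and 4.21 in those of 10 months. Its later values rested on as few as 4 reads (10-month replicate 3), so their order among the later libraries is not resolved. For neither model did 10 against 5 months pass the test: for 370352 edgeR gave 0.18 on the log2 scale (SE 0.72, adjusted p = 0.958), and for 438968 it gave -0.06 (SE 0.90, adjusted p = 0.989). The sign of both small differences changed in some other fits.

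The 2-month libraries placed the members at like levels, though each library alone would have picked many other gene models. Replicate 2 was higher than replicate 1 for 77 of the 131 members (58.8%), with a median log2 difference of 0.14, and 99 members (75.6%) agreed within 2-fold. Over all 6288 gene models with at least 100 scaled reads in both 2-month libraries, 67.3% agreed within 2-fold and the median log2 difference was -0.05. Across gene models, the ranks of both libraries correlated with a Spearman rho of 0.846 over the members and 0.731 over these 6288, as a description only. The rule asks both libraries to be high, which favours such agreement among members.

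Applied to 2-month replicate 1 alone, the rule picked 391 gene models, of which 131 (33.5%) also met it in replicate 2. Among the other 7160 gene models with at least 100 scaled reads in replicate 1, 4.58% met it in replicate 2. Applied to replicate 2 alone, it picked 1158 gene models, and 11.3% of these met it in replicate 1, against 2.61% of the other 6483 gene models at that level. Both readings divide by the same 5 later libraries, so gene models with low later values meet the bound more easily in either library, and these shares are a description only. Most gene models picked from a single 2-month library did not meet the rule in the other.

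**Figure D3:**
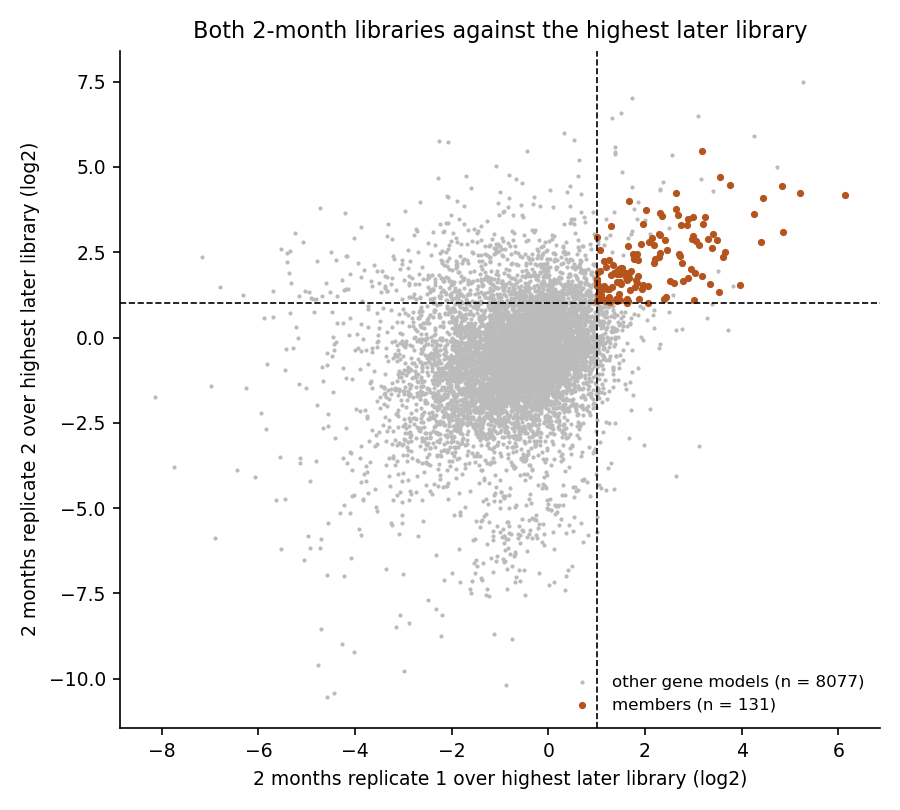
Scaled reads of 2-month replicate 1 (horizontal) and replicate 2 (vertical) over the highest of the 5 later libraries, on log2 axes; 1 point per gene model, dashed lines at a 2-fold excess. The 131 members fill the upper right corner, while many of the 8077 other gene models lie beyond 1 dashed line only.

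The rule kept the members low at 5 and 10 months alike. The test of 10 against 5 months passed for 2 of them, in opposite directions. This is the comparison that the rule did not use, although its ceiling covered 3 libraries at 10 months and 2 at 5 months. In 1 edgeR quasi-likelihood fit of all 7 libraries, the log2 fold change of 10 against 5 months was positive for 63 members and negative for 68. Its median was -0.05 over the members and -0.06 over all 14753 gene models tested. This balance moved with the scaling, as 45 members were positive with median-of-ratios factors and 41 with the 8 abundant gene models set aside, where the median over all tested was -0.22 and -0.32. The middle 50% of the members ran from -0.84 to 0.43 and the extremes were -3.50 and 2.77. The fold change was positive for 48.1% of the members, against 63.1% of the 6157 other gene models with at least 100 scaled reads in both 2-month libraries. The median log2 fold change of these others was 0.28. They were not matched to the members on level and had no ceiling at 5 and 10 months. The difference between members and these others was not tested, since members and non-members were separated by these same libraries.

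Of the 131 members, 2 passed the edgeR test at an adjusted p under 0.05 (1.53%, against a background of 1.84% of all gene models tested). The calls were 1 rise (0.763%, background 1.63%) and 1 fall (0.763%, background 0.21%). A total of 23 members (17.6%) had an unadjusted p under 0.05, against 13.8% of all tested. The 10-month libraries lay wholly above the 5-month libraries for 22 members (16.8%, background 23.6%) and wholly below them for 29 (22.1%, background 25.2%), and overlapped for the other 80. A change of at least 2-fold upward was fitted for 17 members (13.0%, background 16.4%) and downward for 28 (21.4%, background 20.8%). Among the 6157 other gene models with at least 100 scaled reads in both 2-month libraries, 4.16% were called and 27.4% had an unadjusted p under 0.05. Their 10-month libraries lay wholly above the 5-month ones for 39.7% and wholly below for 17.6%, and 20.9% were at least 2-fold higher and 6.55% at least 2-fold lower. The share of members at least 2-fold lower was thus close to that of all tested and above that of these 6157. The 6157 share only the floor at 2 months and had no ceiling later, and the difference was not tested. All 131 members passed the filter on low counts, and 130 did so in the 5 later libraries alone. That filter does not ask for reads in every library, and 19 members had 0 reads in at least 1 later library. Members under 10 scaled reads in a later library numbered from 5 (5-month replicate 2) to 24 (10-month replicate 3).

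Gene model 486322 (1633 bp) was the 1 member called lower at 10 months in the edgeR fit of all 7 libraries. Other members fell as well without a call, down to a log2 fold change of -3.50. At 2 months 486322 had 21221 and 18159 scaled reads. At 10 months it had 196, 421 and 142, against 1518 and 2551 at 5 months. The 3 harvests did not overlap, so this model stepped down at each. For 10 against 5 months edgeR gave -2.84 on the log2 scale (SE 0.49, adjusted p = 0.0259). Gene model 547740 (2160 bp), the next lowest fold change under the naming rule, had 11796 and 11229 scaled reads at 2 months. At 10 months it had 226, 506 and 216, against 1024 and 1504 at 5 months. Its 3 harvests did not overlap either, but 10 against 5 months did not pass, at -1.83 on the log2 scale (SE 0.43, edgeR adjusted p = 0.0667). This depended on the fit. It passed with DESeq2 (adjusted p = 0.00497), limma-voom (adjusted p = 0.0039), no low-count filter and these harvests alone. It did not pass with median-of-ratios factors, unique reads, the 8 abundant gene models set aside, replicate number as a block or any 10-month library left out.

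Gene model 411538 (3424 bp), which returned in part, was the 1 member called higher at 10 months in the edgeR fit of all 7 libraries. At 2 months it had 7312 and 4843 scaled reads. At 10 months it had 1067, 717 and 630, against 162 and 101 at 5 months. All 10-month libraries lay above both 5-month ones and far below the 2-month ones. For 10 against 5 months edgeR gave 2.77 on the log2 scale (SE 0.43, adjusted p = 0.0172). Gene model 424425 (892 bp) had the same order of harvests, with 7652 and 5288 scaled reads at 2 months. At 10 months it had 1838, 1076 and 936, against 346 and 742 at 5 months. The difference between 10 and 5 months did not pass (log2 fold change 1.40, SE 0.46, edgeR adjusted p = 0.182). It passed with limma-voom (adjusted p = 0.00827) but not with DESeq2 (adjusted p = 0.161).

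**Figure D4:**
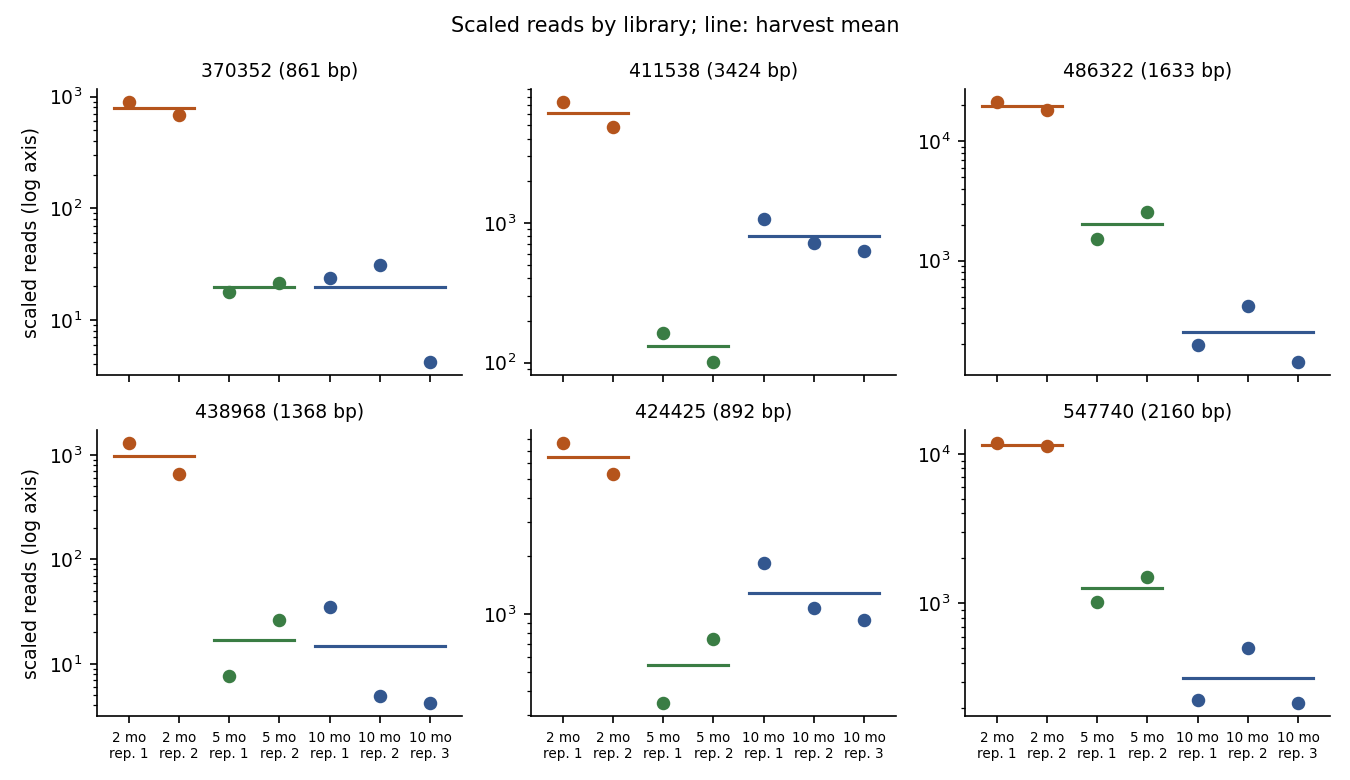
Scaled reads (log axis) of 6 members in every library; points are libraries, lines are harvest means. Left column, the largest ratios (370352 and 438968, at most 34.9 later); middle, higher at 10 than at 5 months (411538 and 424425); right, lower at 10 than at 5 months (486322 and 547740).

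Both calls depended on the set of libraries, as did the share called of all gene models tested. Neither passed without 10-month replicate 1 or 2. In these edgeR fits 0 members passed, and 0.521% and 0.0541% of all gene models tested were called. Leaving out a 5-month library leaves 1 library at 5 months, so only the fold changes are given and no call is read. Without 5-month replicate 1 the log2 fold change was 3.19 for 411538 and -3.14 for 486322. Without 5-month replicate 2 it was 2.46 for 411538 and -2.43 for 486322. Without 10-month replicate 3 the call of 486322 was lost as well (log2 fold change -2.55, edgeR adjusted p = 0.0673). With replicate number as a block, 411538 passed and 486322 did not (log2 fold change -2.58, edgeR adjusted p = 0.068). The fits without 2-month replicate 1 or 2 called 10 and 8 members (9.42% and 8.75% of all gene models tested were called there), and the fit without both 2-month replicate 2 and 10-month replicate 3 called 24, 9 higher and 15 lower, where 16.9% of all gene models tested were called. Across all these fits 411538 stayed higher and 486322 lower at 10 months.

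**Figure D5:**
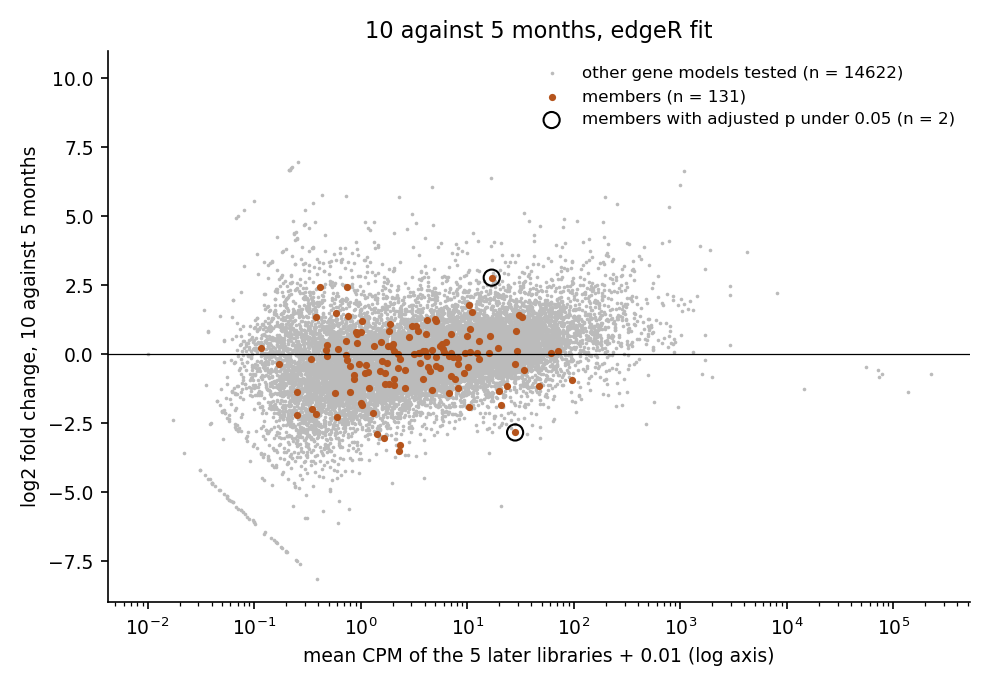
Log2 fold change of 10 against 5 months (vertical) against the mean CPM of the 5 later libraries (horizontal, log axis), 1 point per gene model tested. The 131 members lie within the cloud of the other 14622 gene models, on both sides of 0; the circled members are 411538 (2.77) and 486322 (-2.84).

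The decline from 2 months itself served to choose the members, so the counts of calls in those comparisons support nothing. For 5 against 2 months, 41 members were called lower (background of 0.746% called lower and 1.37% in either direction), with a median log2 fold change of -2.82 over the members and 0.10 over all tested. For 10 against 2 months, 63 members were called lower (background of 0.705% lower and 2.35% in either direction), with medians of -3.03 and 0.20. These comparisons share the 2-month libraries. The members made up 37.3% of all falls called at 5 months and 60.6% of those called at 10 months.

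In length and in the uniqueness of their reads, which the rule did not use, the members lay near the transcriptome as a whole. The median length implied by the deposited RPKM was 1354 bp (middle 50% from 900.5 to 1806 bp, range 222 to 4419 bp). It was 1323 bp over the 18407 gene models with reads and 1588 bp over the 6288 with at least 100 scaled reads in both 2-month libraries, so the median member was shorter than the median gene model of that level. Nearly all member reads were unique, with 99.90% to 99.99% per library, against 99.29% to 99.94% outside the members. All reads were unique for 119 members (90.8%, against 88.4% of gene models with reads), and the lowest value was 97.5%. Reads shared between similar gene models were thus few among the members.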

How the data were processed

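RNA of 7 microcosm samples was read as paired reads of 125 bp, per the labels. The authors deposited, for each library, counts of unique gene reads and of total gene reads per gene model, and an RPKM value, per the file headers. Aligner, counter, build, annotation and strand handling: not given in the sources used here. The RPKM deposited by the authors served only to recover the length (implied lengths differed between libraries by at most 0.0045 bp). The members and the tests were chosen with earlier results of these data known.

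Total gene reads were fitted in edgeR 4.0.16 (R 4.3.3) with filterByExpr, TMM scaling, 3 harvests as groups, a quasi-likelihood test and Benjamini-Hochberg adjustment over all 14753 gene models tested. SE is the log2 fold change over the square root of F. The test and the rule were tested on simulated data. Other fits used DESeq2 1.42.0 and limma 3.58.1 (voom with quality weights). Floors for 0 counts cover counting error only. Per the labels the libraries are biological replicates, and p-values rest on 2 to 3 libraries a harvest. Identifiers were named by a rule: the 2 largest ratios, and the 2 largest rises and falls of 10 against 5 months with at least 20 CPM in the higher harvest and no overlap, taking uncalled ones where fewer than 2 passed.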

Additional observations from a re-analysis of the deposited data

How the results depend on the processing

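The bounds set the number of members. The rule also keeps at most 200 gene models, a limit that the 131 did not reach. Member counts under changed settings are of all gene models that met the bounds, without this limit. A ratio of 1.5 gave 305 and a ratio of 3 gave 71, while unique reads, other scalings and a minimum of 50 or 200 stayed within 1.5 times of 131. Leaving out 1 library gave 142 to 1144 members, including 123 to 131 of the 131, with 1144 without 2-month replicate 1 and 523 without 2-month replicate 2. For 10 against 5 months the counts of called members, higher and lower, were 10, 3 and 7 with DESeq2 (7.63% of members, 4.56% of all tested), 10, 3 and 7 with no low-count filter (7.63% and 3.79%), 7, 3 and 4 from these harvests alone (5.38% of 130 members tested, 10.6% of all) and 19, 6 and 13 with limma-voom (14.5% and 19.6%). The share of members was thus above that of all tested in the first pair of fits and below it in the other pair. Over all gene models tested, the median (log2) shifted from -0.06 to -0.22 with median-of-ratios factors and to -0.32 without the 8 abundant models, and that of the members moved with it, from -0.05 to -0.21 and -0.30. Leaving out 1 library gave 0 to 10 called members, 0 to 4 higher and 0 to 6 lower, where 0% to 9.42% of all tested were called. For 5 against 2 and 10 against 2 months, which the rule used, the counts were 98 and 128 with DESeq2 (6.8% and 9.71% of all tested), 77 and 95 with no filter (3.17% and 5.04%), 27 and 19 from the harvests compared alone (0.681% and 0.234%), and 86 and 99 with limma-voom (2.41% and 2.39%). They ran from 15 to 38 (0.392% to 1.06% of all tested) and from 15 to 41 (0.223% to 1.03%) with 1 10-month library left out. In the fit that set the 8 models aside, 27 were called for 5 against 2 months (1.21% of all tested). Without both 2-month replicate 2 and 10-month replicate 3, chosen after seeing the data, the rule gave 597 members, and the fit called 24 (9 higher, 15 lower; 18.3% of members, 16.9% of all tested), 121 and 122 (19.1% and 14.3% of all tested). A harvest left with 1 library is assumed to vary like the others. The labels link same-numbered libraries by a number only. Correlations of their deviations ran from -0.373 to 0.042. In harvests of 2 libraries the deviations mirror each other (correlation -1.0), so these values cannot decide whether a block is shared. With the replicate block 1 member was called for 10 against 5 months (0 lower, 0.763% of members, 0.793% of all tested). That fit called 26 for 5 against 2 (0.766% of all) and 27 for 10 against 2 (0.542% of all). The crossed block, added because the 2-month and 5-month deviations correlated at -0.115, gave 20 for 5 against 2 months (0.671% of all tested). Signs changed for 370352 (-0.069 without the 8 models, and -0.37 to 0.64 with 1 library left out) and for 438968 (0.24 without both libraries, and -1.75 to 1.10 with 1 left out). For all of these the cause was not tested.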

Other observations

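The same bounds applied at the other harvests selected 206 gene models at 5 months and 198 at 10 months, but the 10-month bound asks 3 libraries to be high and the others 2, so these numbers and the 131 are not on 1 footing. A further 90 gene models met the ratio at 2 months with a lower level, under 100 scaled reads in the lower 2-month library. Of the 20 members with the highest mean scaled reads per kb at 2 months (at least 2948), the 10-month libraries lay wholly below the 5-month ones for 7 (background 25.2% of all gene models tested), wholly above for 3 (background 23.6%), and overlapped for 10.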
